A study of Mus musculus with 12 samples.

Results

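The genes described here are 9 genes that regulate or mark the oligodendrocyte lineage, namely Olig1, Olig2, Sox10, Nkx2-2, Pdgfra, Gpr17, Cspg4, Cspg5 and Bmp4. They were taken by gene symbol from the annotation of an Affymetrix array on which 12393 genes had at least 1 probe set of their own. Of the 9 genes, 8 had such probe sets, 12 in all, and Gpr17 was not analysed here. The 6 genes Olig1, Olig2, Sox10, Nkx2-2, Pdgfra and Cspg5 were bright enough to be tested among 7835 genes, while Cspg4 and Bmp4 lay below the filter on dim genes. Cerebellum of BALB/c mice was profiled in 4 groups of 3 arrays, in this report called null at postnatal day 49 (P49; Npc1-/-), wild type at P49 (Npc1+/+), null at P21 and wild type at P21. Per the labels, each array held total RNA of 1 animal on standard chow. The labels give female for 11 animals and male for null P49 replicate 1. The labels do not name the Npc1 allele, and loss of Npc1, a protein that exports cholesterol from lysosomes, is not limited to any cell type by the genotype given. The comparisons asked how these genes differ between null and wild-type cerebellum at each age, and between the ages in each genotype.

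Oligodendrocytes, the cells that make central myelin, arise from precursors that divide and migrate before they differentiate. In mice the precursors are recognised by the PDGF receptor Pdgfra and the NG2 proteoglycan Cspg4, and PDGF keeps them dividing. The transcription factors Olig2 and Sox10 act from precursor to mature cell, Nkx2-2 and Olig1 take part in the step to differentiation, and BMP signals hold that step back. In the cerebellum, myelin forms in the weeks after birth, and the precursors persist in the adult.

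The RefSeq promoter table (build GRCm38.p6) held 5 of the 9 genes. The 250 bases before the start are printed for Olig2, Nkx2-2 and the precursor receptor Pdgfra. Olig2 and Nkx2-2 each belong to a pair of regulators that varied together across the arrays, with 1 probe set read per gene. Capitals mark matches on either strand to the E-box CANNTG, which basic helix-loop-helix factors such as Olig2 bind, to the SOX cores ACAAAG and ACAAT, and to the NKX2 core AAGTG. The windows are chr16:91225300-91225549 on the plus strand for Olig2, chr2:147186403-147186652 on the minus strand for Nkx2-2 and chr5:75152001-75152250 on the plus strand for Pdgfra.
Olig2: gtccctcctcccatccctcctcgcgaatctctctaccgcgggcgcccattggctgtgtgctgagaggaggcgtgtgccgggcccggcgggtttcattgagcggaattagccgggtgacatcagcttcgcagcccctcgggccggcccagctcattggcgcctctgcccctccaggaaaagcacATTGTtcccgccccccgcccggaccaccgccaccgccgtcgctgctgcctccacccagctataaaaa
Nkx2-2: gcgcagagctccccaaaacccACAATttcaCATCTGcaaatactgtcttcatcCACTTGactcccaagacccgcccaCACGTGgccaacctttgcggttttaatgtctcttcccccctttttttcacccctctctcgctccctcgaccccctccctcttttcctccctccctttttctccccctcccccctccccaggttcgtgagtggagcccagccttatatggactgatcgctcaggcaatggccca
Pdgfra: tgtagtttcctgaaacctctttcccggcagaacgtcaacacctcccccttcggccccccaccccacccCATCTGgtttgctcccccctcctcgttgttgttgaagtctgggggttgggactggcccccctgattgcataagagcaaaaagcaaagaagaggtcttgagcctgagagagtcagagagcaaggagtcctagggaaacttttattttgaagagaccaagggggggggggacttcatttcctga
The Olig2 window held 1 ACAAT match, on the opposite strand, and neither an E-box nor an AAGTG. The Nkx2-2 window held 3 E-boxes, 1 ACAAT and 1 AAGTG, the last on the opposite strand and inside the middle E-box. The Pdgfra window held 1 E-box and no match to the other 3 motifs. Among 32851 windows of the same length, 66.2% held an E-box, 27.7% ACAAT, 16.5% ACAAAG and 40.7% AAGTG. The GC content was 66.8% for Olig2, 56.4% for Nkx2-2 and 54.4% for Pdgfra, beside a median of 52.4% over all windows. A match describes these letters and is not a bound site.

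Several arrays went against their labels or stood apart. Npc1 lay lower on each of the 6 null arrays (8.25 to 10.53 in log2 units) than on each of the 6 wild-type arrays (11.06 to 11.75), with differences of -1.43 ± 0.37 at P49 (limma adjusted p = 0.0591) and -1.95 ± 0.37 at P21 (limma adjusted p = 0.101). Null P21 replicates 2 and 3 and wild-type P21 replicate 2, labelled female, had Xist at 13.01, 13.36 and 9.28, against 15.61 or more on the other 9 arrays. These 3 arrays, called doubtful below, had the Y-linked Eif2s3y at 9.25, 12.67 and 12.72. Null P21 replicate 1 had it at 4.66, and wild-type P21 replicates 1 and 3 at 4.35 and 5.41. Null P21 replicates 2 and 3 thus had Xist above wild-type P21 replicate 2, and Eif2s3y above the 9 arrays not called doubtful. Why both were raised there was not tested. Null P49 replicate 1 also went against its label, male, with Xist at 15.63 and the Y-linked Eif2s3y at 7.93, where the other P49 arrays had Eif2s3y at 5.19 to 8.91. A fit without all 4 such arrays was added after seeing the data. Null P21 replicate 2 had a median correlation of 0.929 with the other arrays over all genes, the lowest of the 12. Genes of granule neurons, the defining neurons of cerebellum, were bright in all 4 groups, with summed intensities of 484604 to 504399 in null P49, 508407 to 529098 in wild-type P49, 493610 to 524576 in null P21 and 505094 to 540611 in wild-type P21.

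Across the 4 groups the clearest pattern was a lower level of Olig1 at P49 than at P21. No member was called different between null and wild type at either age. Nkx2-2 was on average lower in null animals at both ages and Pdgfra higher in null animals at P49, but neither passed the test. Values are log2(intensity + 16) after quantile normalization, differences carry limma's standard error, and a call is a Benjamini-Hochberg adjusted p under 0.05 in limma over the 7835 genes. All groups had 3 animals.

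**Figure D1:**
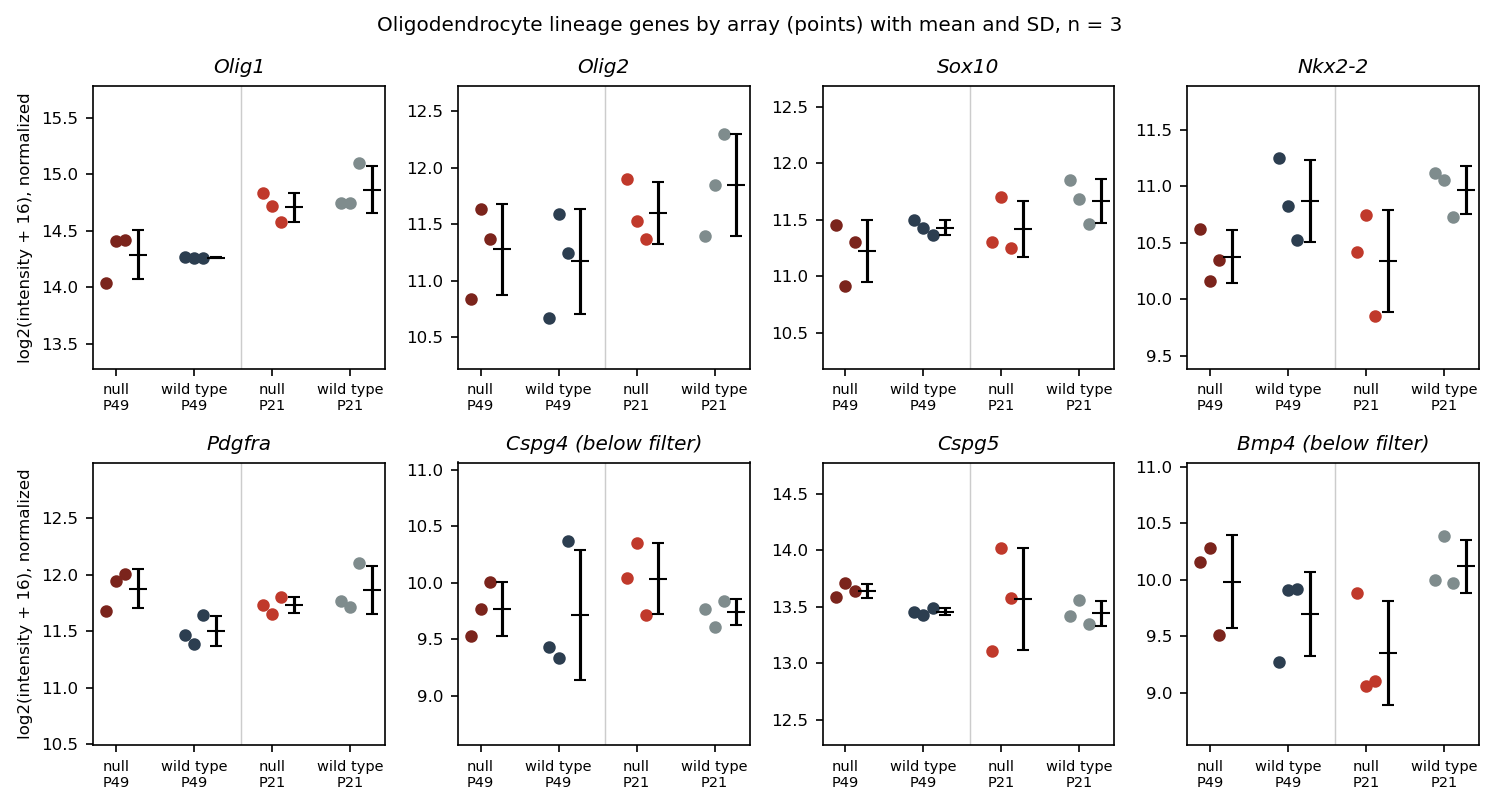
Level of each of the 8 measured genes by array, as log2(intensity + 16) after normalization, in null and wild-type cerebellum at P49 and P21. Points are arrays, horizontal ticks are means and bars are SD (n = 3), and every panel spans the same range. The 6 P49 values of Olig1, at most 14.42, all lie below the 6 P21 values, at least 14.58.

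Olig1, a basic helix-loop-helix factor needed for myelin repair in mice, was at 14.04, 14.41 and 14.42 in null P49 cerebellum and at 14.27, 14.26 and 14.25 in wild-type P49 cerebellum. At P21 it was at 14.83, 14.72 and 14.58 in null and at 14.75, 14.74 and 15.10 in wild-type cerebellum. Every P49 array was below every P21 array, whereas the genotypes overlapped at both ages. As deposited, the intensities were 16553, 21316 and 21528 in null P49, 19717, 19551 and 19496 in wild-type P49, 30254, 27473 and 23945 in null P21 and 27423, 27681 and 35371 in wild-type P21. In wild type, Olig1 at P49 fell by 0.60 ± 0.13 relative to P21, a ratio of 0.658 (95% interval of the log2 difference -0.87 to -0.34, limma adjusted p = 0.0432). It was the only 1 of the 6 tested genes called in this comparison, where 0.702% of all genes were called, and 3 of the 6 had an unadjusted p under 0.05, as did 9.99% of all genes. In null animals the difference was -0.42 ± 0.13 (-0.69 to -0.15, limma adjusted p = 0.0653), which did not pass. There 0 of 6 members were called by limma, beside 6.23% of all genes, and 1 member, Olig1, had an unadjusted p under 0.05, as did 20.9% of all genes. The difference between the genotypes in this age change was 0.18 ± 0.18 (-0.20 to 0.57, limma adjusted p = 0.854). In this tissue-level RNA, fewer cells of the lineage and less RNA per cell cannot be told apart.

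The Olig1 call in wild type rested closely on single arrays and settings. Limma's adjusted p was 0.0913, 0.0982 and 0.212 without wild-type P21 replicate 1, 2 or 3, and 0.132, 0.182 and 0.171 without wild-type P49 replicate 1, 2 or 3. Null P49 replicates 2 and 3 lie outside this comparison but share its normalization, filter and spread estimate. Without replicate 2 or 3 of null P49, limma's adjusted p was 0.0612 and 0.0647. The call was kept in 11 of 24 alternatives, and the log2 difference stayed between -0.66 and -0.48 in all 24. In null animals Olig1 was called without null P21 replicate 3 (limma adjusted p = 0.0481) or without wild-type P21 replicate 3 (limma adjusted p = 0.0487). A contrast added after seeing the data, the mean of both genotypes' age differences, gave -0.51 ± 0.09 for Olig1 (-0.70 to -0.32, limma adjusted p = 0.00351). Olig1 was called in this average under all 23 alternatives run, with adjusted p from 0.00263 to 0.0126, beside 6.97% of all genes called. Without the 3 doubtful arrays the Olig1 age difference in wild type was -0.66 (limma adjusted p = 0.0257), and without all 4 arrays at odds with their label it was -0.66 (limma adjusted p = 0.0116). Both fits leave 1 null P21 array, so the null age difference rests on that array and takes its spread from the 3 other groups. It was -0.54 without the 3 arrays and -0.42 without the 4 (limma adjusted p = 0.0632 and 0.0906).

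Values of myelin genes stand beside those of Olig1. The summed intensity of the 27 tested myelin and mature oligodendrocyte genes was 679202 to 725188 in null P49 and 639628 to 764786 in null P21 cerebellum, ranges that overlapped. In wild type it was 702518 to 718839 at P49 and 818394 to 965086 at P21, without overlap. The part of these genes in the Olig1 result was not tested.

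Olig2, the related factor that specifies the lineage in mice, was at 10.84, 11.63 and 11.37 in null P49, 10.67, 11.59 and 11.25 in wild-type P49, 11.90, 11.53 and 11.37 in null P21 and 11.40, 11.84 and 12.30 in wild-type P21 cerebellum. All groups overlapped, and single groups spread over as much as 0.46 (SD, wild-type P49). Its wild-type age difference was -0.68 ± 0.28 (-1.27 to -0.08, limma adjusted p = 0.402), larger in size than that of Olig1 but with a wider error, and it did not pass. In null animals it was -0.32 ± 0.28 (-0.92 to 0.28, limma adjusted p = 0.539). Null against wild type gave 0.11 ± 0.28 at P49 (limma adjusted p = 0.942) and -0.25 ± 0.28 at P21 (limma adjusted p = 0.748).

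Nkx2-2, a homeodomain repressor that promotes differentiation of precursors in mice, was at 10.62, 10.16 and 10.35 in null P49 and at 11.25, 10.82 and 10.53 in wild-type P49 cerebellum. At P21 it was at 10.41, 10.74 and 9.86 in null and at 11.12, 11.06 and 10.73 in wild-type cerebellum. At both ages the null values were the lower ones, with 1 null array just above the lowest wild-type array. The genotype difference was -0.49 ± 0.25 at P49 (-1.03 to 0.05, limma adjusted p = 0.512) and -0.63 ± 0.25 at P21 (-1.17 to -0.09, limma adjusted p = 0.470). Single arrays moved these values: the P49 difference was -0.30 without wild-type P49 replicate 1 and -0.66 without wild-type P49 replicate 3, and the P21 difference was -0.39 without null P21 replicate 3 and -0.84 without null P21 replicate 2. In none of 23 alternatives was Nkx2-2 called by limma at either age. Averaged over both ages, a contrast added after seeing the data, it was -0.56 ± 0.18 (-0.94 to -0.18, limma adjusted p = 0.142), with adjusted p from 0.0555 to 0.337 over 22 alternatives. None of the 6 members was called by limma in that average, where 2.12% of all genes were called, and Nkx2-2 was the only 1 with an unadjusted p under 0.05, as were 14.5% of all genes. With age it did not move beyond its error, at 0.04 ± 0.25 in null and -0.10 ± 0.25 in wild type.

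Sox10, an HMG-box factor that switches on myelin genes, had 3 probe sets, and the brightest represented it. That probe set was at 11.45, 10.91 and 11.31 in null P49, 11.50, 11.43 and 11.36 in wild-type P49, 11.30, 11.70 and 11.25 in null P21 and 11.85, 11.69 and 11.46 in wild-type P21 cerebellum. The groups overlapped in all 4 comparisons. The genotype difference was -0.21 ± 0.18 at P49 (-0.58 to 0.17, limma adjusted p = 0.789) and -0.25 ± 0.18 at P21 (-0.63 to 0.13, limma adjusted p = 0.607). The second probe set that passed the filter was at 10.21, 10.48 and 10.62 in null P49 and at 10.90, 10.91 and 11.02 in wild-type P49 cerebellum. It did not overlap between the genotypes at P49, with a difference of -0.51 ± 0.20 in a limma fit over all probe sets without a filter (adjusted p = 0.402). In null animals it was also lower at P49 than at P21, where it was at 10.66, 11.28 and 11.06, by -0.56 ± 0.20 (limma adjusted p = 0.189). The third, dimmer probe set gave 0.15 ± 0.35 for genotype at P49 and 0.36 ± 0.35 for age in null animals. Over the 12 arrays the 3 probe sets correlated with each other at r = 0.24 to 0.63. The size of a Sox10 difference thus depends on the probe set read. So does its sign for genotype at P49 and for age in null animals.

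**Figure D2:**
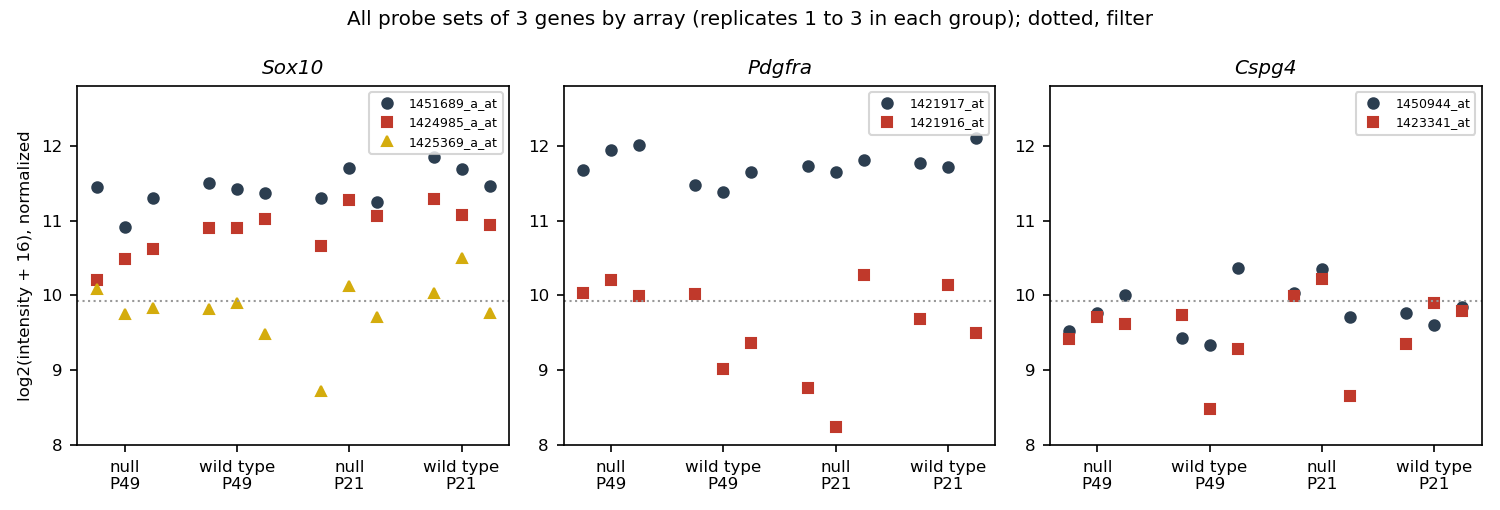
All probe sets of Sox10, Pdgfra and Cspg4 by array, as log2(intensity + 16) after normalization, with replicates 1 to 3 from left to right in each group. The dotted line is the filter at 9.93, and the Sox10 probe set drawn as squares is lower on all 3 null P49 arrays than on all 3 wild-type P49 arrays.

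Pdgfra, the receptor for PDGF-A on precursors, was at 11.68, 11.94 and 12.01 in null P49 and at 11.47, 11.38 and 11.65 in wild-type P49 cerebellum. At P21 it was at 11.74, 11.66 and 11.80 in null and at 11.76, 11.72 and 12.11 in wild-type cerebellum. All 3 null P49 arrays lay above all 3 wild-type P49 arrays, whereas the genotypes overlapped at P21. The difference was 0.38 ± 0.15 at P49, a ratio of 1.30 (0.07 to 0.69, limma adjusted p = 0.291), and -0.13 ± 0.15 at P21 (limma adjusted p = 0.745). The change of the genotype difference with age, the interaction, was 0.51 ± 0.21 (0.07 to 0.95, limma adjusted p = 0.524). In wild type, Pdgfra at P49 did not overlap with P21 either and was lower, at -0.36 ± 0.15 (-0.68 to -0.05, limma adjusted p = 0.385), against 0.15 ± 0.15 in null animals. A dimmer probe set, below the filter on average, gave 0.61 ± 0.45 for genotype at P49 and correlated with the first at r = 0.30. Meningeal fibroblasts also express Pdgfra, and 7 of the 8 tested fibroblast genes had positive differences at P49, with summed intensities of 29219 to 31545 in null and 19951 to 24773 in wild-type cerebellum. None of these 8 was called by limma at P49, where 2.65% of all genes were called. An unadjusted p under 0.05 was met by 1 of them, Dcn, and by 11.3% of all genes. At P21 the 8 summed to 14710 to 45387 in null and 20149 to 31187 in wild-type cerebellum. The part of these genes in the Pdgfra values was not tested. Calls among the 8 at P49 ran from 0 to 3 over 24 alternatives. Dcn, a matrix proteoglycan gene, was at 13.11, 13.28 and 13.30 in null P49 and at 12.60, 12.42 and 12.76 in wild-type P49 cerebellum, without overlap. Its difference was 0.64 ± 0.29 (limma adjusted p = 0.432), and it was called with only the 6 P49 arrays fitted (limma adjusted p = 0.00458), without the 3 doubtful arrays (0.0301) and without all 4 arrays at odds with their label (0.0423). Pdgfra was not called by limma in any of 24 alternatives, where its P49 difference ran from 0.31 to 0.50. Pericyte and smooth muscle genes, 7 tested, summed to 46535 to 59055 in null P49 and 46780 to 52652 in wild-type P49 cerebellum.

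Cspg5, a brain proteoglycan also called neuroglycan C that neurons express as well, was at 13.59, 13.71 and 13.64 in null P49 and at 13.46, 13.43 and 13.49 in wild-type P49 cerebellum. At P21 it was at 13.11, 14.02 and 13.58 in null and at 13.42, 13.56 and 13.35 in wild-type cerebellum. The genotypes did not overlap at P49, by a small margin, and the null P21 arrays were spread around the wild-type ones. The difference was 0.19 ± 0.17 at P49 (-0.17 to 0.55, limma adjusted p = 0.805) and 0.13 ± 0.17 at P21 (-0.23 to 0.49, limma adjusted p = 0.792). Without null P21 replicate 2, the array with the highest value, the P21 difference was -0.10, and without the 3 doubtful arrays it was -0.27. The age difference in null animals was 0.07 ± 0.17 over all arrays and 0.53 without the doubtful arrays (limma adjusted p = 0.0186), a fit in which 1 null P21 array stood for its group.

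Cspg4 and Bmp4 had mean levels of 9.81 and 9.79 against a filter of 9.93, so how far they lay above background is not known. Cspg4, the NG2 proteoglycan of precursors and pericytes, ranged over 9.52 to 10.01 in null P49, 9.34 to 10.37 in wild-type P49, 9.72 to 10.35 in null P21 and 9.61 to 9.84 in wild-type P21 cerebellum. These ranges overlapped in every comparison. Bmp4, a ligand that holds precursors back from differentiating in mice, was at 10.16, 10.28 and 9.52 in null P49, 9.27, 9.91 and 9.92 in wild-type P49, 9.88, 9.06 and 9.11 in null P21 and 10.00, 10.39 and 9.97 in wild-type P21 cerebellum. All 3 null P21 arrays were below all 3 wild-type P21 arrays, and all 3 wild-type P49 arrays were below them too. In the limma fit without a filter the genotype difference of Bmp4 was -0.77 ± 0.32 at P21 (-1.47 to -0.07, adjusted p = 0.612) and 0.28 ± 0.32 at P49 (adjusted p = 0.881), and its interaction was 1.05 ± 0.46 (adjusted p = 0.681). None of these passed.

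By genotype, 0 of the 6 tested members were called by limma at P49, 0 at P21 and 0 in the interaction, with 1 member at an unadjusted p under 0.05 in each. That member was Pdgfra at P49 and in the interaction, and Nkx2-2 at P21. Unadjusted p under 0.05 was met by 11.3% of all genes at P49, 10.1% at P21 and 8.44% in the interaction. Over all genes 2.65% were called at P49, 0.0638% at P21 and 0.549% in the interaction. The members' adjusted p ran from 0.291 to 0.968 at P49 and from 0.470 to 0.792 at P21. Their median difference was 0.07 at P49 and -0.20 at P21, beside -0.019 and -0.0047 over all genes. At P49, 4 of 6 were above 0, and at P21 5 of 6 were below 0. Groups without overlap were found in 2 of 6 members for genotype at P49 (23.2% of all genes) and in 0 of 6 at P21 (11.8% of all genes). For age they were found in 1 of 6 in null (22.5% of all genes) and in 2 of 6 in wild type (21.4% of all genes). The median age difference was -0.08 in null and -0.30 in wild type, and 3 of 6 members in null and 5 of 6 in wild type were below 0.

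**Figure D3:**
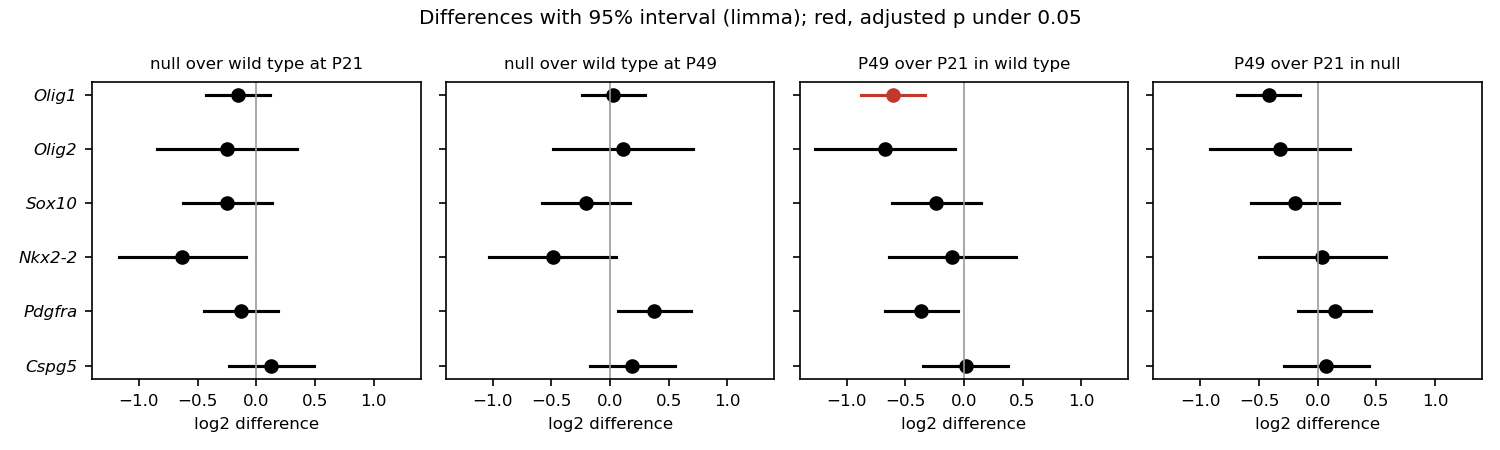
Log2 difference of each tested gene in the 4 comparisons, with points for limma estimates and bars for 95% intervals (n = 3 per group). The point in red, Olig1 for P49 over P21 in wild type at -0.60, is the only call.

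The regulators did not vary as 1 block. Olig1 and Olig2, which lie on chromosome 16 with 1 noncoding gene between them in the RefSeq table, correlated at r = 0.81 over the 12 arrays and at r = 0.74 in deviations from the group means. Sox10, read from its brightest probe set, and Nkx2-2 correlated at r = 0.77 and 0.78 on the same measures. The other Sox10 probe sets were not set against Nkx2-2, so this pairing holds for that probe set only. Over all 15 pairs of the 6 tested members the median r was 0.04, with a range of -0.45 to 0.81. Within groups, Nkx2-2 against Pdgfra was at r = -0.66 and Olig1 against Pdgfra at r = 0.74. These values describe likeness among 12 arrays that share normalization and tissue dissection, and carry no test.

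**Figure D4:**
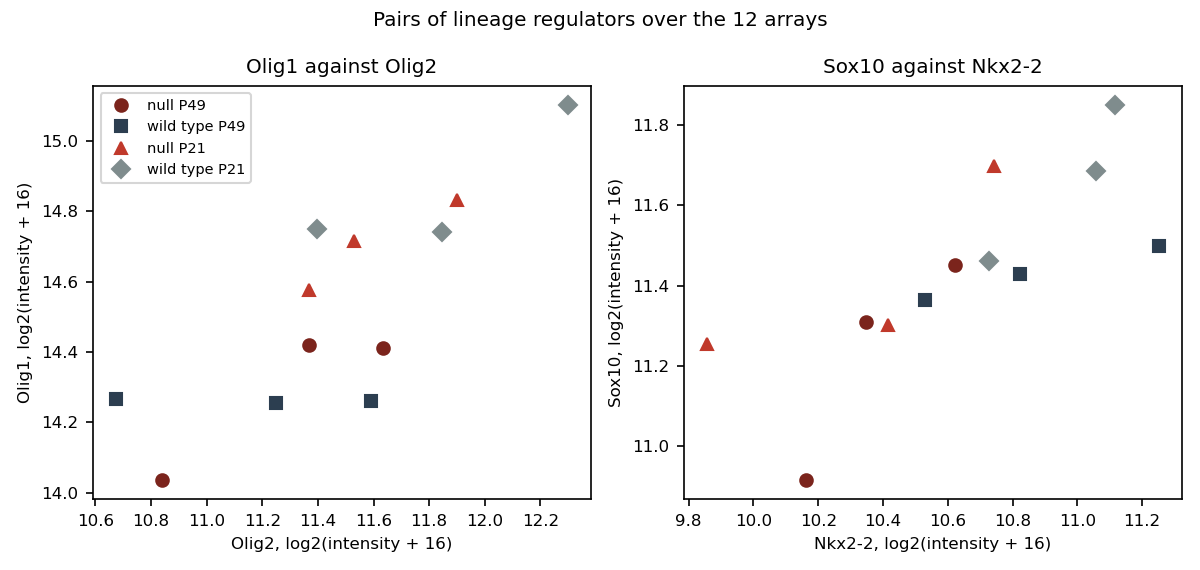
Olig1 against Olig2 and Sox10 against Nkx2-2 on each of the 12 arrays, as log2(intensity + 16) after normalization, with a symbol for each group. Arrays with high Olig2 have high Olig1 (r = 0.81), and arrays with high Nkx2-2 have high Sox10, read from its brightest probe set (r = 0.77).

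Likeness of profile was ranked among the tested genes, with members and genes that have clone, Rik, Gm or LOC names left out. In that ranking the gene most like the mean profile of the 6 members was the myelin gene Mag, at r = 0.92 over 12 arrays. Telo2 (0.90), Gltp (0.89), Sulf2 (0.86) and Tpm3 (0.86) followed. The single gene most like each member was Lrrn1 for Olig1 (0.95), Pdgfc for Olig2 (0.88), Emd for Sox10 (0.88), Tmem267 for Nkx2-2 (0.93), Gpam for Pdgfra (0.88) and Sf3b4 for Cspg5 (0.94). Of these 11 genes, 1 was called at P49, Gpam at 0.50 in null over wild type (limma adjusted p = 0.0426), beside 2.65% of all genes. Gpam was picked for its likeness to Pdgfra over these same arrays, so its P49 difference is not a separate result. All 11 were picked for the highest r among the ranked genes, so their r values are high by that choice.

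Matn4 and Ednrb, further genes of precursors, rose in null cerebellum at P49. Of 30 such genes listed, 16 were tested, and 2 were called higher and none lower at P49, where 2.65% of all genes were called. Of the 16, 13 were above 0, and the median was 0.27 beside -0.019 over all genes. Matn4, a matrilin of the extracellular matrix, was at 11.36, 11.43 and 11.78 in null P49 and at 10.71, 10.22 and 10.25 in wild-type P49 cerebellum, a difference of 1.13 ± 0.21 (limma adjusted p = 0.00863). Ednrb, an endothelin receptor that astrocytes also express, was at 13.07, 13.35 and 13.11 in null P49 and at 12.49, 12.43 and 12.22 in wild-type P49 cerebellum, a difference of 0.80 ± 0.16 (limma adjusted p = 0.0156). The groups did not overlap for either gene. The next 2, Sox4 at 0.57 ± 0.16 (limma adjusted p = 0.108) and the proteoglycan gene Bcan at 0.58 ± 0.20 (limma adjusted p = 0.212), did not pass over all 12 arrays. Limma's adjusted p for Matn4 was 0.0715 without null P49 replicate 3 and 0.0530 without wild-type P49 replicate 2. For Ednrb it was 0.111 and 0.0639 without null P49 replicate 2 or 3, 0.0555 and 0.0843 without wild-type P49 replicate 2 or 3, and 0.0625 with probe sets averaged. Without the 3 doubtful arrays Matn4, Ednrb, Sox4 and Bcan were called higher (limma adjusted p = 0.00351, 0.00124, 0.0174 and 0.0397), and 1 gene of the list lower. Without all 4 arrays at odds with their label 5 were called higher and none lower. Leaving out null P21 replicate 2 alone gave 4 calls, with Sox4 at 0.0175 and Bcan at 0.0326, and leaving out null P21 replicate 3 gave 3, with Sox4 at 0.0474. The count of higher calls was 0 without null P49 replicate 3 or wild-type P49 replicate 2, and ran from 0 to 5 over 24 alternatives. At P21 the same list had a median of 0.08, 9 of 16 genes above 0 and no call by limma, beside 0.0638% of all genes. An unadjusted p under 0.05 at P21 was met by 3 of these genes and by 10.1% of all genes. Astrocyte and Bergmann glia genes, 17 tested, summed to 722816 to 789666 in null P49 and 606298 to 623467 in wild-type P49 cerebellum. Of these 17, 13 were above 0 and 4 below at P49, and 2 were called higher and none lower. Their median difference was 0.14, with a range of -0.44 to 3.30. Microglia genes, 11 tested, summed to 153969 to 195225 in null P49 and 29306 to 31716 in wild-type P49. The part of both lists in the rises of precursor genes was not tested.

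The partners of the members' pathways gave few calls. Of 17 tested BMP ligands, antagonists, receptors and targets, 1 was higher and 1 lower at P49, beside 2.65% of all genes called. Their median was 0.05, beside -0.019 over all genes. Id3, an inhibitor of helix-loop-helix factors induced by BMP, rose to 11.49, 11.78 and 11.57 in null P49, against 10.61, 10.79 and 10.53 in wild-type P49, by 0.97 ± 0.20 (limma adjusted p = 0.0134). Id2, of the same family, fell to 14.35, 14.34 and 14.28 in null P49, against 14.93, 15.02 and 14.99 in wild-type P49, a difference of -0.66 ± 0.10 (limma adjusted p = 0.00139). Neither gene overlapped between the genotypes at P49, and they moved in opposite directions. Without null P49 replicate 2 or 3, limma's adjusted p for Id3 was 0.0909 and 0.0633, and without wild-type P49 replicate 1 or 3 it was 0.0632 and 0.0625. Id2 was called in 23 of 24 alternatives, and its probe sets averaged gave -0.45 (limma adjusted p = 0.0959). The ligand Bmp6 (0.68 ± 0.22, limma adjusted p = 0.155) and the antagonist Nog (-0.95 ± 0.32, limma adjusted p = 0.189) did not pass at P49. Of 4 tested PDGF ligands and receptors limma called none at P49, with 1 at an unadjusted p under 0.05, as were 11.3% of all genes. Pdgfa, the ligand of Pdgfra, was at 11.36, 11.03 and 11.09 in null P49 and at 11.56, 11.60 and 11.77 in wild-type P49 cerebellum, a difference of -0.48 ± 0.16 (limma adjusted p = 0.167), without overlap. Pdgfb, another ligand, gave 0.43 ± 0.22 (limma, unadjusted p = 0.0680) and did not pass. A dimmer Pdgfb probe set gave -0.09 ± 0.33 in the limma fit over all probe sets without a filter, so the direction depends on the probe set. At P49 limma called 7 of 10 tested Purkinje cell genes lower and none higher. Of 11 tested microglia genes it called 10 higher and none lower. Which cells the values of the BMP and PDGF genes come from was not tested.

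Of 20 other tested transcription regulators of the lineage, limma called 1 at P49, Id2, which the BMP list also holds, and none at P21, where 4 had an unadjusted p under 0.05. The share of all genes called was 2.65% at P49 and 0.0638% at P21. An unadjusted p under 0.05 at P21 was met by 10.1% of all genes. The median of the 20 was -0.02 at P49 and 0.08 at P21, beside -0.019 and -0.0047 over all genes. At P21 the smallest p values were those of Nfia at 0.68 ± 0.21 (limma adjusted p = 0.364) and Nfib at 0.41 ± 0.14 (limma adjusted p = 0.417), nuclear factors of glial development.

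Genes of committed and premyelinating oligodendrocytes mostly had negative age differences, with 1 called in wild type and more in the average of both genotypes. Of 13 tested, 11 were below 0 in null, with a median of -0.25 beside -0.0072 over all genes, and 11 in wild type, with a median of -0.31 beside -0.0029. In wild type limma called 1, the deacetylase gene Sirt2, which fell to 13.94, 13.85 and 13.91 at P49, against 14.40, 14.42 and 14.49 at P21, by 0.54 ± 0.10 on the log2 scale (adjusted p = 0.0205). Limma's adjusted p for Sirt2 was 0.0849, 0.0960 and 0.113 without wild-type P21 replicate 1, 2 or 3, 0.0629, 0.124 and 0.0997 without wild-type P49 replicate 1, 2 or 3, and 0.0587 with no variance trend. In null limma called none, and 3 had an unadjusted p under 0.05, as did 20.9% of all genes. In wild type 6 of the 13 had an unadjusted p under 0.05, as did 9.99% of all genes. Over all genes limma called 6.23% for age in null and 0.702% in wild type. The age difference averaged over both genotypes was added after seeing the data. In it limma called 5 of the 13 lower and none higher, beside 6.97% of all genes called. There 9 of the 13 had an unadjusted p under 0.05, as did 22.5% of all genes. Lower calls in that average ran from 1 to 6 over 23 alternatives. By genotype the list's median was 0.02 at P49 and -0.08 at P21, with no call by limma. Over all genes limma called 2.65% at P49 and 0.0638% at P21. At each age 1 gene of the list had an unadjusted p under 0.05, beside 11.3% of all genes at P49 and 10.1% at P21.

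The later myelin genes gave the most calls for age among the lists of this lineage. Of 27 tested, 4 were higher and 7 lower at P49 in null, and 7 were lower and none higher in wild type. The share of all genes called for age was 6.23% in null and 0.702% in wild type. Among those called in both, Gsn differed by -1.05 ± 0.11 in null and -1.37 ± 0.11 in wild type (limma adjusted p = 7.36e-05 and 3.77e-05). Ugt8a, which makes the myelin lipid galactosylceramide, differed by -1.24 ± 0.20 in null and -1.43 ± 0.20 in wild type (limma adjusted p = 0.00274 and 0.00479). The tight junction gene Cldn11 differed by -1.15 ± 0.15 in wild type (limma adjusted p = 0.00241). Mog, a myelin surface protein, differed by -1.31 ± 0.20 in wild type (limma adjusted p = 0.0101, or 0.0657 without wild-type P49 replicate 2). Plekhb1 and Qdpr were higher at P49 in null, by 0.81 ± 0.11 and 0.70 ± 0.10 (limma adjusted p = 0.000893 and 0.00146). In wild type neither was called, but both were also higher at P49 without overlap, as 21.4% of all genes did not overlap there. Wild-type Plekhb1 was at 15.61 to 15.78 at P49 and 15.18 to 15.45 at P21. Wild-type Qdpr was at 15.78 to 15.93 at P49 and 15.46 to 15.67 at P21. By genotype the list had 26 of 27 genes below 0 at P21, with a median of -0.40 beside -0.0047 over all genes. There was no call by limma at P21, where 0.0638% of all genes were called. At that age 15 genes of the list had an unadjusted p under 0.05, as did 10.1% of all genes. Cldn11 was at -0.86 ± 0.15 (limma adjusted p = 0.0524) and Mal, a myelin membrane protein, at -1.08 ± 0.21 (limma adjusted p = 0.109). Without null P21 replicate 1, 4 of the 27 were called lower at P21, Cldn11 (limma adjusted p = 0.0227) and Mal (0.0113) among them, and without null P21 replicate 2 these were the 2 called (0.0424 and 0.0151). With values as deposited Cldn11 was called (limma adjusted p = 0.0469), and without the 3 or the 4 arrays at odds with their label limma called none of the 27 at P21. In the genotype difference averaged over both ages, 7 of 27 were called lower and none higher, 3 without the 3 or the 4 arrays, and 2 to 9 over 23 alternatives. The share of all genes called was 2.12% in that average and 2.65% at P49. At P49 18 of 27 were below 0, with a median of -0.11 beside -0.019 over all genes. Limma called 1 of them at P49, the protease gene Adamts4 at -0.66 ± 0.15 (adjusted p = 0.0278). Limma's adjusted p for Adamts4 was 0.171 and 0.182 without null P49 replicate 2 or 3, 0.114, 0.102 and 0.0846 without wild-type P49 replicate 1, 2 or 3, and 0.244 with probe sets averaged. The members themselves had a median of 0.07 at P49 and -0.20 at P21, and the difference between the lists was not tested.

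**Figure D5:**
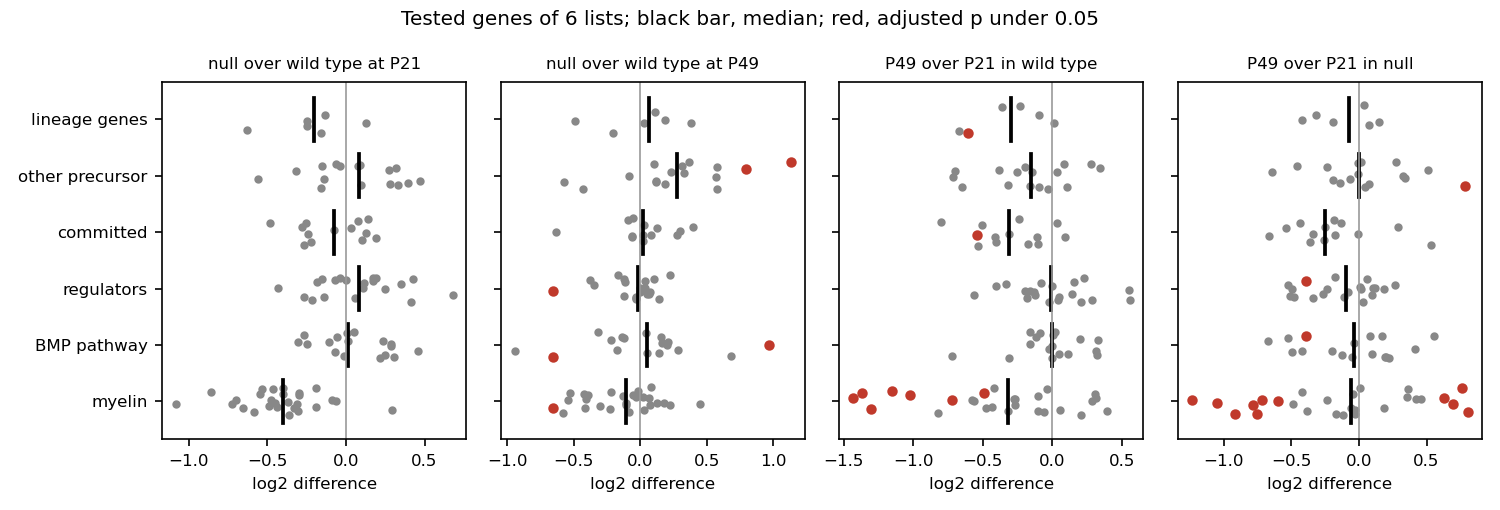
Log2 differences of the tested genes of 6 lists in the 4 comparisons, with a point per gene, a black bar at the median and red points for limma adjusted p under 0.05. The first line holds the 6 tested lineage genes, whose medians are 0.07 for genotype at P49, -0.20 for genotype at P21, -0.08 for age in null and -0.30 for age in wild type, and other precursor genes have their highest median, 0.27, in null over wild type at P49.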

How the data were processed

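Total RNA of 12 cerebella was hybridised to Affymetrix arrays, per the labels. The authors deposited 1 linear intensity for each of 22690 probe sets and array. The algorithm that summarised probes is not given in the sources used here. Each array had a 2% trimmed mean of 5002, detection calls were not used here, and the number of arrays limits the precision. Replicates are individual animals, per the labels. One protocol text gives P21 for all animals, and the time point labels were used.

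Probe sets were named through the platform annotation, 20380 with 1 symbol, 691 with several and 1555 with none, and 20351 matched RefSeq by identifier, with 0 symbols changed. Intensities became log2(value + 16), since array medians differed (10.65 to 10.92), and were quantile normalized. The brightest probe set stood for its gene, and 7835 genes passed the filter at the 40th percentile, an intensity of 959. Contrasts of 4 group means over all 12 arrays were tested two-sided in limma 3.58.1 (R 4.3.3, eBayes with trend) with Benjamini-Hochberg adjustment and a threshold of 0.05. On simulated data for genotype at P49 over 7835 genes, 78 of 100 changes of log2 1 and 99 of 100 of log2 2 were recovered, and 9 unchanged genes were called. The differences of the tested members were all smaller than log2 1. Changes of that size were not simulated, so these rates do not show how often they would be called. Members and gene lists were chosen with earlier results of these data known, so lists get counts and medians and no test. Named list genes are up to 4 of a list with the smallest p in a comparison. Genes alike in profile are those with the highest Pearson r, with members and genes that have clone, Rik, Gm or LOC names left out. Deviations of arrays with the same replicate number correlated at -0.18 to 0.19, so numbers were not taken to pair animals. Alternatives were other normalization, pseudocount, filter, probe set choice, variance model and arrays. The 2 averaged contrasts, and the fit without all 4 arrays at odds with their sex label, were added after seeing the data.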

Additional observations from a re-analysis of the deposited data

How the results depend on the processing

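The count of 1 member called for age in wild type (Olig1) was 0 with values as deposited, with no filter, with all probe sets tested, with no variance trend and with the replicate block, where limma's adjusted p for Olig1 was 0.0565, 0.0596, 0.0544, 0.102 and 0.0777. It ran from 0 to 1 when single arrays were left out. The block changed no other call of a member, and same-numbered arrays share only a number. The count of 0 for age in null was 1 without the 3 doubtful arrays and without the 4 at odds with their label, there Cspg5 (limma adjusted p = 0.0186 and 0.0212) against the 1 null P21 array left, and ran from 0 to 1 without single arrays, there Olig1. The counts for genotype and the interaction were 0 throughout. Results that did not pass changed sign without the doubtful arrays: Olig2 (0.053) and Cspg5 (-0.27) for genotype at P21, Olig2 (0.081) and Cspg5 (-0.041) for genotype over both ages, and Nkx2-2 (-0.036) for age in null. Without the 4 arrays these were 0.053 and -0.27, 0.19 and -0.027, and -0.16, and Olig1 for genotype over both ages (0.030) and Nkx2-2 for the interaction (-0.10) changed sign too. As deposited, Cspg5 for age in wild type (-0.0027) and Nkx2-2 for age over both genotypes (0.079) did, and with probe sets averaged Pdgfra for age over both genotypes (0.11) and Id2 for genotype at P21 (0.13) did. Leaving out single arrays gave ranges across 0 for genotype at P49 of Olig1 (-0.036 to 0.16) and Olig2 (-0.14 to 0.33), at P21 of Cspg5 (-0.10 to 0.36) and over both ages of Olig2 (-0.19 to 0.044). For the interaction these were Sox10 (-0.074 to 0.20), Nkx2-2 (-0.10 to 0.34) and Cspg5 (-0.17 to 0.28). For age they were Nkx2-2 (-0.20 to 0.24 in null, -0.29 to 0.071 in wild type, -0.15 to 0.072 over both) and Cspg5 (-0.15 to 0.30 in null, -0.033 to 0.073 in wild type and -0.070 to 0.16 over both). The cause was not tested. Bmp4 and Cspg4 lie where signal over background is unknown, which limits what their values show.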
